A study of Mus musculus with 4 samples.

Results

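Endothelial and blood-spinal cord barrier genes were followed at the lesion site of mice carrying human ApoE3 or ApoE4. The genes were chosen by name, and are written CLDN5, OCLN, TJP1, PECAM1, CDH5, MFSD2A, SLCO1A4, ABCB1A, FLT1 and PLVAP in the deposited table and in mouse spelling from here on. Of these 10 genes, 9 were listed at 7 dpi (days post injury) among 14123 genes with a row of their own, and 6 at 21 dpi among 11470. Tjp1 was listed at neither time point, and Ocln, Pecam1 and Plvap were not listed at 21 dpi, so nothing is said of their change over time.

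The groups were male ApoE3 and male ApoE4 targeted replacement mice at 7 dpi, and the same genotypes at 21 dpi. Targeted replacement mice make human ApoE and none of their own, so mice with murine ApoE are not part of the comparison. They were 3 to 5 months old when they received a contusion SCI of 50 kdyne at the mid-thoracic level, and a segment of about 4 mm containing the lesion was taken for RNA-seq. All 4 groups were injured, and no sham-operated or uninjured cord was analysed here.

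The study used 3 mice per genotype and time point, but the table gives 1 value per gene and group. The spread between mice is therefore unknown here, no difference was checked against replicates, and no test was made. The authors' own p-values and q-values were deposited with the values, and were not used here. Values are FPKM, in which fragments are counted relative to transcript length and to all fragments of the library, and the reads behind each value are unknown. Ratios are log2 of (FPKM + 1), which understates the change of low genes, and a positive ratio between genotypes means higher in ApoE3. A gene was counted as past the fold when it differed by at least 1.3-fold, the minimum fold the study used. The row names give the comparison as ApoE3 versus ApoE4, the deposited fold change divides the value columns in that order, and that reading was used. The numbering of the value columns would pair them the other way, and under it every direction between genotypes, and the genotype to which each change over time belongs, would be exchanged. At 21 dpi most of the table was lower in ApoE3 (median over all genes, -0.42), and each ratio there is read beside that median.

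Endothelial cells of the spinal cord form a barrier between blood and tissue. Tight junction strands seal the space between neighbouring cells, few vesicles cross them, and transporters in their membranes carry nutrients in and drugs or toxins out. After contusion the barrier opens, vessels are lost and new ones grow, and human ApoE4 has been linked to a weaker barrier in the brain.

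Claudin 5, encoded by Cldn5, is the main sealing protein of these strands. Cldn5 had 54.99 FPKM in ApoE3 against 62.2 in ApoE4 at 7 dpi, and 69.3 in ApoE3 against 87.9 in ApoE4 at 21 dpi. As deposited it was somewhat higher in ApoE4 at both time points, with log2 ratios of -0.18 and -0.34, neither past the fold and the latter above the median of all genes. Occludin, encoded by Ocln, is a further protein of the strands. Ocln had 17.6 FPKM in ApoE3 against 23.9 in ApoE4 at 7 dpi. With a log2 ratio of -0.42 it was the only listed member lower in ApoE3 past the fold at that time, and 3.43% of all listed genes had a lower ratio. Tjp1, which encodes the scaffold protein ZO-1 beneath the strands, gave no value.

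Cdh5 encodes VE-cadherin, the adhesion molecule of endothelial adherens junctions. Cdh5 had 20.6 FPKM in ApoE3 against 21.6 in ApoE4 at 7 dpi, and 12.8 in ApoE3 against 12.2 in ApoE4 at 21 dpi. As deposited the genotypes were close at each time point, with log2 ratios of -0.067 and 0.065, the latter above that of 95.2% of all genes. Both groups were lower at 21 dpi. Pecam1 encodes CD31, an adhesion molecule of endothelial cells that platelets and leukocytes also carry. Pecam1 had 47.3 FPKM in ApoE3 against 48.7 in ApoE4 at 7 dpi, a log2 ratio of -0.042.

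Mfsd2a encodes a lipid transporter of brain endothelium that keeps vesicle traffic low. Mfsd2a had 43.2 FPKM in ApoE3 against 40.8 in ApoE4 at 7 dpi, and 49.4 in ApoE3 against 69.97 in ApoE4 at 21 dpi. Its log2 ratio was 0.080 at 7 dpi and -0.50 at 21 dpi, where it was past the fold. Slco1a4 encodes an organic anion transporter of the barrier. Slco1a4 had 162 FPKM in ApoE3 against 139.6 in ApoE4 at 7 dpi, and 218 in ApoE3 against 272 in ApoE4 at 21 dpi. It was the most abundant member per length in every group, and its log2 ratios of 0.21 and -0.32 were not past the fold.

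Abcb1a encodes P-glycoprotein, a pump that returns drugs to the blood. Abcb1a had 17.2 FPKM in ApoE3 against 12.5 in ApoE4 at 7 dpi, and 20.04 in ApoE3 against 23.7 in ApoE4 at 21 dpi. At 7 dpi it was the only listed member higher in ApoE3 past the fold, with a log2 ratio of 0.44, and at 21 dpi the ratio was -0.23. This value is uncertain, because 7.72% of the 100-base windows of its longest coding transcript occur unchanged in transcripts of Abcb1b or Abcb4. Abcb1b had 8.37 FPKM in ApoE3 against 10.97 in ApoE4 at 7 dpi, and 5.25 in ApoE3 against 6.85 in ApoE4 at 21 dpi. Abcb1b was thus lower in ApoE3 at 7 dpi, opposite to Abcb1a. For the sum of Abcb1a and Abcb1b, a measure chosen after the values were seen, the log2 ratio at 7 dpi was 0.12, which is not past the fold.

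Slco1a4 shared 1.10% of such windows with Slco1a1 or Slco1a5, and the other 8 members shared none. Slco1a5 had 1.43 FPKM in ApoE3 against 1.81 in ApoE4 at 7 dpi, far below Slco1a4. Among other claudins, Cldn11 of myelin had 286 FPKM in ApoE3 against 265 in ApoE4 at 7 dpi, so Cldn5 was not the most abundant claudin of the segment.

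Flt1 encodes VEGF receptor 1, which binds VEGF and limits its signal through the main receptor, and macrophages also express it. Flt1 had 92.4 FPKM in ApoE3 against 81.8 in ApoE4 at 7 dpi, and 105.6 in ApoE3 against 138 in ApoE4 at 21 dpi. Its log2 ratio was 0.17 at 7 dpi and -0.38 at 21 dpi, a 1.302-fold difference that is barely past the fold, and not past it once the shift of all genes at 21 dpi is subtracted. Plvap encodes the protein of the diaphragms that close endothelial pores and vesicles, and is low where the barrier is mature. Plvap had 12.1 FPKM in ApoE3 against 10.8 in ApoE4 at 7 dpi, a log2 ratio of 0.15, and was the lowest listed member in both groups.

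**Figure D1:**
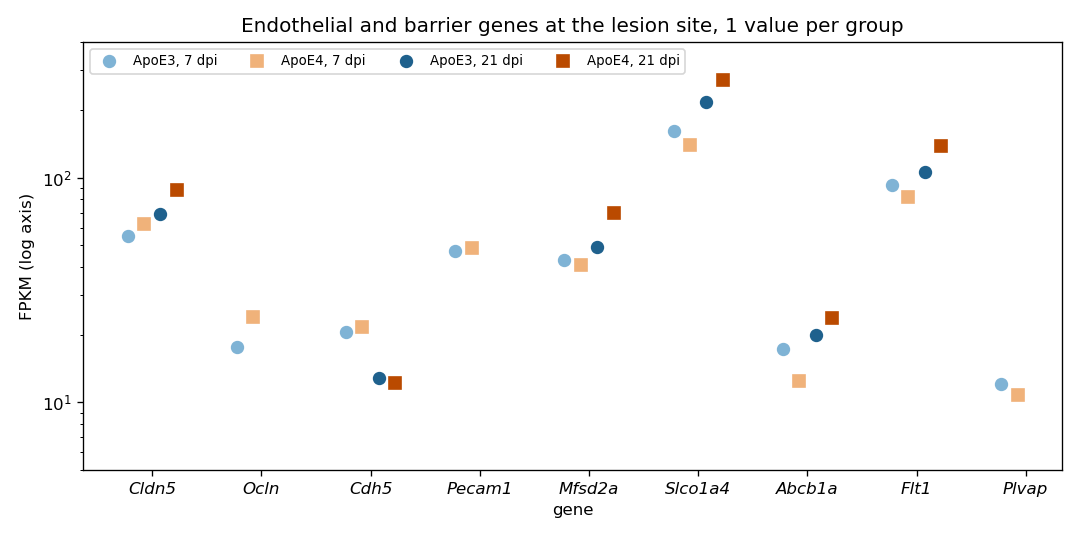
FPKM of the 9 listed genes on a log axis, with 1 point per group, circles for ApoE3 and squares for ApoE4, pale at 7 dpi and dark at 21 dpi. Cdh5 lies lower at 21 dpi, at 12.8 and 12.2 FPKM, and the other 5 genes listed at both time points lie higher there in the values as deposited.

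At 7 dpi, the question is whether these genes differed between the genotypes. Of the 9 listed members, 1 was higher in ApoE3 past the fold, beside 3.78% of all listed genes, and 1 was lower, beside 4.76%. The members' median log2 ratio was 0.080, and that of all genes was 0.0020. The values of the other 7 members lay between -0.18 and 0.21. The transporters, Flt1 and Plvap had ratios above 0, and the junction genes Cldn5, Ocln, Cdh5 and Pecam1 had ratios below 0. The split by role was noticed after the values were seen. In the wider lists 10 of 13 tight junction partners had ratios above 0, unlike the junction genes. Of 20 barrier transport genes 15 had ratios above 0, with Abcb1b at -0.35 among the others. Of 26 endothelial identity genes 9 lay above 0 and 17 below. Of 21 genes of VEGF, angiopoietin and vessel growth 7 lay above 0 and 14 below. Among all listed genes, 49.5% had ratios below 0. With 1 value per group, the split cannot be told apart from differences between mice.

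At 21 dpi the ratio was below 0 for 93.8% of the table. None of the 6 listed members was higher in ApoE3 past the fold, beside 2.01% of all genes. Mfsd2a and Flt1 were lower, 2 of 6 beside 58.9%. The members' median was -0.33, so as a group they stood no lower than the rest of the table. After the median ratio of expressed genes (mean FPKM of at least 1 over both groups) was subtracted, here called centring, Cldn5 stood at 0.085, Slco1a4 at 0.10, Abcb1a at 0.19, Flt1 at 0.042 and Mfsd2a at -0.072. The lower values of Cldn5, Slco1a4, Abcb1a and Flt1 in ApoE3 therefore change sign with the scaling. Cdh5 stood at 0.49 and was the only member higher past the fold on this scale, beside 7.46% of all genes, while none was lower, beside 8.06%. Of all listed genes, 95.2% had a lower ratio than Cdh5.

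**Figure D2:**
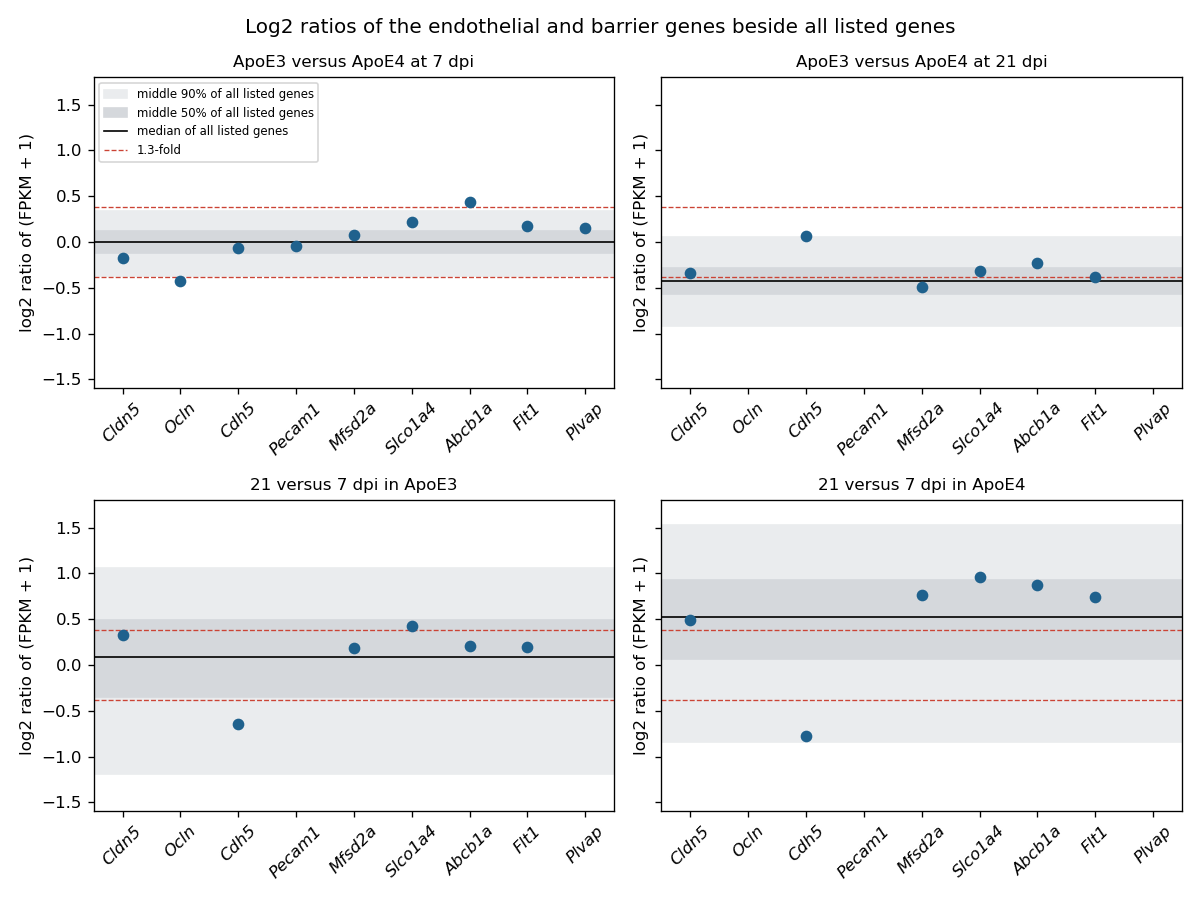
Log2 ratio of each listed gene (points) in the 4 comparisons, with bands for the middle 50% and 90% of all listed genes, a line at their median and dashed lines at 1.3-fold. At 21 dpi the genotype ratios lie around the shifted median of -0.42 except for Cdh5, at 0.065, and Cdh5 lies below the median over time in both genotypes.

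The change from 7 to 21 dpi was read within each genotype. All libraries were reduced to the same number of reads before alignment. The table compares genotypes within a time point, and how FPKM were scaled between time points after alignment is not given in the sources used here, so a ratio across them may also hold a difference in scaling. The median log2 ratio of all 10876 genes listed at both was 0.088 in ApoE3 and 0.53 in ApoE4. In ApoE3, Slco1a4 rose past the fold, 1 of 6 members beside 31.3% of all genes, with a log2 ratio of 0.43. Cdh5 fell, 1 of 6 beside 23.6%, with a log2 ratio of -0.64. Cldn5, at 0.33, Mfsd2a, at 0.19, Abcb1a, at 0.21, and Flt1, at 0.19, were not past the fold. After centring no member was higher past the fold, beside 26.6% of all genes, and Cdh5 was lower at -0.73, beside 27.7%.

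In ApoE4, 5 of 6 members rose past the fold, beside 59.0% of all genes. Their log2 ratios were 0.49 for Cldn5, 0.76 for Mfsd2a, 0.96 for Slco1a4, 0.88 for Abcb1a and 0.75 for Flt1. Cdh5 fell, 1 of 6 beside 10.9%, with a log2 ratio of -0.78. After centring, Slco1a4 stood higher past the fold at 0.43, beside 26.1% of all genes, and Cdh5 lower at -1.30, beside 28.6%. Mfsd2a stood at 0.24, Abcb1a at 0.35 and Flt1 at 0.22, while Cldn5 changed sign to -0.035. For the sum of Abcb1a and Abcb1b the log2 ratio was -0.017 in ApoE3 and 0.37 in ApoE4, so the rise of Abcb1a in ApoE4 is not past the fold for the pair. Cdh5 was lower in both genotypes on both scales, and 14.3% of all genes in ApoE3 and 5.53% in ApoE4 had a lower ratio.

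A ratio of 2 genes within a group does not depend on the scaling of that group. Cdh5 was taken as the denominator after its values were seen. Cldn5 had 2.67 times the FPKM of Cdh5 in ApoE3 and 2.88 times in ApoE4 at 7 dpi, and 5.41 and 7.20 times at 21 dpi. Slco1a4 had 7.87 and 6.46 times at 7 dpi, and 17.01 and 22.3 times at 21 dpi. Mfsd2a had 2.099 and 1.89 times at 7 dpi and 3.85 and 5.73 times at 21 dpi. Abcb1a had 0.837 and 0.576 times, then 1.56 and 1.94 times, and Flt1 had 4.49 and 3.79 times, then 8.24 and 11.3 times. All 5 ratios were higher at 21 dpi in both genotypes, which follows from the choice of denominator, since Cdh5 was the only 1 of the 6 genes to be lower there. At 21 dpi all 5 were also higher in ApoE4, and this too follows from Cdh5, the only member with a ratio between genotypes above 0 before centring. The ratios are therefore a description of these levels and add no support. At 7 dpi Cldn5 was the only one of the 5 with a higher ratio to Cdh5 in ApoE4. Whether fewer endothelial cells or less RNA per cell lies behind a lower level cannot be told apart in bulk RNA.

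**Figure D3:**
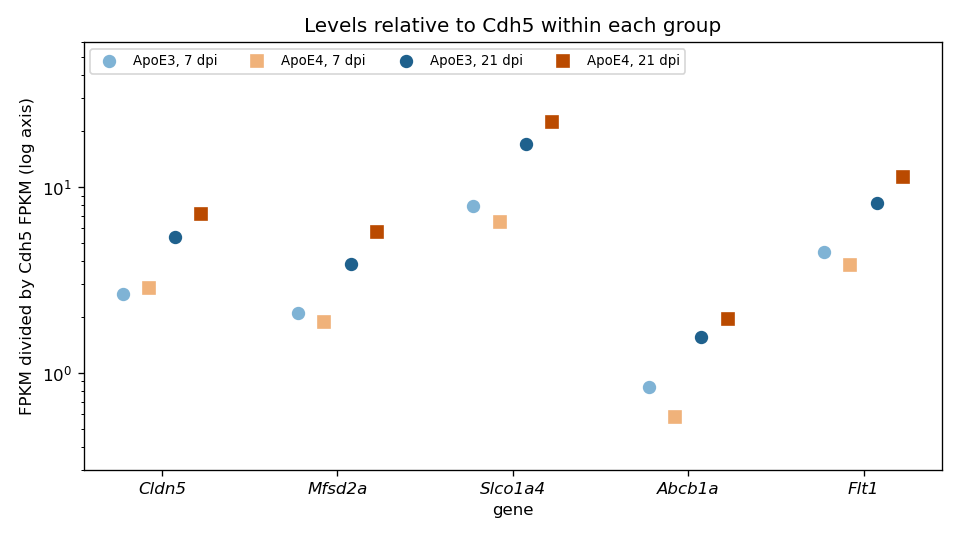
FPKM divided by the FPKM of Cdh5 in the same group, on a log axis, with symbols by group. For each of the 5 genes the values at 21 dpi lie above those at 7 dpi, as for Cldn5 with 2.67 and 2.88 at 7 dpi and 5.41 and 7.20 at 21 dpi.

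The 5 members other than Cdh5 that were listed at both time points all rose past the fold in ApoE4 before centring, so the 250 bases before their start sites are shown. They come from RefSeq promoters of GRCm38.p6, in which 7 of the 10 members matched, without Pecam1, Cdh5 and Plvap. The genome build of the authors is not given in the sources used here. Capitals mark GGAAG, a core of sites for ETS factors, and CTTTGA, a core of sites for TCF/LEF factors, on either strand, and no base lies in more than 1 match. They are written 5′ to 3′ on the strand of the gene.
Cldn5 (chr16:18776597-18776846, + strand): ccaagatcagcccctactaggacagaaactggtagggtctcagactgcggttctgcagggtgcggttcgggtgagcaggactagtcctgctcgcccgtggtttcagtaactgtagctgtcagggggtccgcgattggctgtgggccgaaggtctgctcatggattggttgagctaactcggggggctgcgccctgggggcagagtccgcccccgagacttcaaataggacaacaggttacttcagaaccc
Mfsd2a (chr4:122961189-122961438, - strand): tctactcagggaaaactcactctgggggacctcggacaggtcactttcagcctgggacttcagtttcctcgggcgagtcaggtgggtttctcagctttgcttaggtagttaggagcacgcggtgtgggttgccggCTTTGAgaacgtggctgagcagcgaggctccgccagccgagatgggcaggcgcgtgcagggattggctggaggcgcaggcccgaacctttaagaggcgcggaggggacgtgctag
Slco1a4 (chr6:141856221-141856470, - strand): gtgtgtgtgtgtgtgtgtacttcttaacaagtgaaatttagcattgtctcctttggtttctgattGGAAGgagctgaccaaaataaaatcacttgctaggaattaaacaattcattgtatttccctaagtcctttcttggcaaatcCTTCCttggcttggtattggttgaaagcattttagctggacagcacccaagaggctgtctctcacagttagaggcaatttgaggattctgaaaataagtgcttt
Abcb1a (chr5:8566841-8567090, + strand): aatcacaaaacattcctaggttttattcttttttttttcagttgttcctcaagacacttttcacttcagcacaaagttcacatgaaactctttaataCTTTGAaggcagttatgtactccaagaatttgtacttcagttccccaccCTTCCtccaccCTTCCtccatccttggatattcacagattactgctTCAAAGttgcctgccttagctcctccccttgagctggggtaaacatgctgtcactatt
Flt1 (chr5:147726012-147726261, - strand): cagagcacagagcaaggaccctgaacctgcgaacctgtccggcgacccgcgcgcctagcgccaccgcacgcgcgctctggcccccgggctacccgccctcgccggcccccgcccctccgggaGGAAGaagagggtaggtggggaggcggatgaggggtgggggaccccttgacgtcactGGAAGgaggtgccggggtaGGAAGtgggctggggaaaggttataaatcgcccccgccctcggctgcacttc
GGAAG occurred 3 times in Flt1, 2 times in Slco1a4 and 2 times in Abcb1a, and is in 63.6% of 27025 promoter windows of the same length. CTTTGA occurred 2 times in Abcb1a and 1 time in Mfsd2a, and is in 14.0% of them. The Cldn5 window held neither. These matches describe the letters of the windows only, and neither motif was in all 5 windows.

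Other genes of the same roles were taken from lists, and their counts are read beside the shares of all listed genes. At 7 dpi 3.78% of all genes were higher and 4.76% lower in ApoE3, and at 21 dpi 2.01% were higher and 58.9% lower, or 7.46% and 8.06% after centring. From 7 to 21 dpi 31.3% rose and 23.6% fell in ApoE3, and 59.0% rose and 10.9% fell in ApoE4. After centring these shares were 26.6% higher and 27.7% lower in ApoE3, and 26.1% higher and 28.6% lower in ApoE4. Of 17 tight junction partners, 13 were listed at 7 dpi with none past the fold and a median log2 ratio of 0.033. At 21 dpi 9 were listed, and 4 were lower in ApoE3, a smaller share than of all genes, with a median of -0.14. After centring 2 were higher and none lower, with a median of 0.28. Afdn, a junction scaffold, had 375 FPKM in ApoE3 against 392 in ApoE4 at 7 dpi and 372 and 524 at 21 dpi. Cgnl1, which encodes paracingulin, had 63.2 and 58.2 at 7 dpi and 51.2 and 86.2 at 21 dpi. Both were among the 4 lower genes at 21 dpi. So were Jam2 and Jam3, with log2 ratios of -0.56 and -0.40, or -0.13 and 0.021 after centring. F11r, Esam, Lsr and Pard3, named after their values were seen, had log2 ratios between -0.14 and -0.041, all above 0 after centring. From 7 to 21 dpi 1 partner rose and 2 fell in ApoE3, with a median of -0.011, and 4 rose and none fell in ApoE4, with a median of 0.16. After centring, 1 was higher and 3 lower in ApoE3, with a median of -0.10, and none higher and 4 lower in ApoE4, with a median of -0.37.

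Endothelial identity genes were read beside Cdh5. Of 26 genes, 26 were listed at 7 dpi with 1 higher and 1 lower in ApoE3 past the fold, a median of -0.038. After centring, 0 were higher and 1 lower at 7 dpi. At 21 dpi 22 were listed, with none higher, 5 lower and a median of -0.21. Over time, 5 rose and 4 fell in ApoE3 and 10 rose and 3 fell in ApoE4, with medians of 0.045 and 0.32, both below that of all genes, and the share that rose was below that of all genes in both. After centring, the list stood at 0.21 for the genotypes at 21 dpi. There 18 of 22 lay above 0, with 4 higher and 1 lower past the fold. Over time the centred list stood at -0.044 in ApoE3, with 5 higher and 4 lower. In ApoE4 it stood at -0.20, with 3 higher and 8 lower. The genes named from it moved apart. Egfl7, a secreted endothelial protein, had 112 FPKM in ApoE3 against 115 in ApoE4 at 7 dpi and 197 and 205 at 21 dpi. Emcn, which encodes endomucin of capillaries and veins, had 11.4 and 11.7 at 7 dpi and 11.2 and 25.04 at 21 dpi. Vwf, the clotting factor stored in endothelium, had 21.6 and 35.4 at 7 dpi and 50.8 and 41.4 at 21 dpi. Vwf was thus higher in ApoE4 at 7 dpi and higher in ApoE3 at 21 dpi, with log2 ratios of -0.69 and 0.29. Kdr, which encodes the main VEGF receptor, was named after its values were seen. It had 15.4 and 16.3 FPKM at 7 dpi and 9.01 and 11.8 at 21 dpi, and with Cdh5 was among the genes that fell in both genotypes.

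Of 20 barrier transport genes, 20 were listed at 7 dpi with 1 higher in ApoE3 and none lower, a median of 0.050. At 21 dpi 16 were listed with 5 lower, a median of -0.33, as for the members, or 0.095 after centring, where 2 were higher and 1 lower. Over time 5 rose and 3 fell in ApoE3, and 9 rose and 3 fell in ApoE4, the share that rose being close to that of all genes in each. After centring 5 were higher and 6 lower in ApoE3, and 5 higher and 5 lower in ApoE4. Slc19a3, a thiamine transporter, had 8.22 FPKM in ApoE3 against 5.02 in ApoE4 at 7 dpi and 10.5 and 28.9 at 21 dpi. It was the gene higher in ApoE3 at 7 dpi, and at 21 dpi it was lower there by a log2 ratio of -1.38. Tfrc, the transferrin receptor, had 48.4 and 41.4 at 7 dpi and 47.9 and 78.8 at 21 dpi, and Bsg, basigin, had 462 and 452 and then 657 and 860.1.

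The Wnt signal that keeps the barrier in place was read from 19 genes. At 7 dpi 1 was lower in ApoE3, with a median of -0.094 over 19, and at 21 dpi 4 were lower, with a median of -0.26 over 13. After centring 2 were higher and 1 lower at 21 dpi, with a median of 0.17. Over time 3 rose and 3 fell in ApoE3, with a median of -0.020, and 3 rose and none fell in ApoE4, with a median of 0.063, below the 0.53 of all genes. After centring, 1 was higher and 7 were lower in ApoE4, with a median of -0.46. Tspan12, a co-receptor component, had 144 and 141 FPKM at 7 dpi and 88.6 and 178 at 21 dpi. Lef1, a transcription factor of the pathway, had 14.1 and 15.4 at 7 dpi and 21.7 and 29.8 at 21 dpi, and was among the 3 that rose in each genotype, also past the fold after centring in both.

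Among 22 genes of VEGF, angiopoietin and vessel growth, 21 were listed at 7 dpi with 3 lower in ApoE3 and a median of -0.14. At 21 dpi 17 were listed, of which 12 were lower and 1 was higher, with a median of -0.46 beside -0.42 for all genes. After centring none was lower and 2 were higher, with a median of -0.037. Over time, of the 16 listed at both, 4 rose and 5 fell in ApoE3, with a median of 0.043, and 7 rose and 4 fell in ApoE4, with a median of 0.31. These became 3 higher and 5 lower in ApoE3, with a median of -0.046, and 2 higher and 7 lower in ApoE4, with a median of -0.21, after centring. Angpt2, which loosens vessels when VEGF is present, had 2.75 FPKM in ApoE3 against 4.11 in ApoE4 at 7 dpi and 2.36 and 0.529 at 21 dpi. It was the gene higher in ApoE3 at 21 dpi, and its values are low. Angpt1, which stabilises vessels, had 12.6 and 10.1 at 7 dpi and 5.37 and 9.68 at 21 dpi. Notch4, an endothelial Notch receptor, had 9.02 and 17.5 at 7 dpi and 11.96 and 17.97 at 21 dpi, lower in ApoE3 at both as deposited. Its log2 ratios were -0.88 and -0.55, the latter -0.13 after centring.

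Caveolae are the vesicles that Mfsd2a holds down. All 5 genes of the list were listed at both time points, none past the fold at 7 dpi, with a median of -0.16, and 1 lower at 21 dpi, with a median of 0.00027, or 0.42 after centring, where 3 were higher and none lower. Over time 1 rose and 1 fell in ApoE3, with a median of 0.11, or 0.018 after centring with the same counts. In ApoE4 2 rose and 2 fell, with a median of -0.24, and after centring none was higher and 3 were lower, with a median of -0.77. Cav1 had 108.2 and 129 FPKM at 7 dpi and 103.7 and 90.2 at 21 dpi. Of the 6 leukocyte adhesion genes 3 were listed, with none past the fold at 7 dpi and 2 lower in ApoE3 at 21 dpi, with a median of -0.54, or -0.12 after centring, where none was past the fold. From 7 to 21 dpi 1 rose and 2 fell in ApoE3, and 1 rose and 1 fell in ApoE4, with medians of -0.66 and -0.22, or -0.75 and -0.74 after centring, where 1 was higher and 2 were lower in each. Ackr1, a chemokine receptor of venules, had 28.8 and 24.6 at 7 dpi and 62.9 and 80.7 at 21 dpi, whereas Icam1 had 11.001 and 12.9 and then 4.34 and 7.46. Sele, Selp and Madcam1 were not listed.

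**Figure D4:**
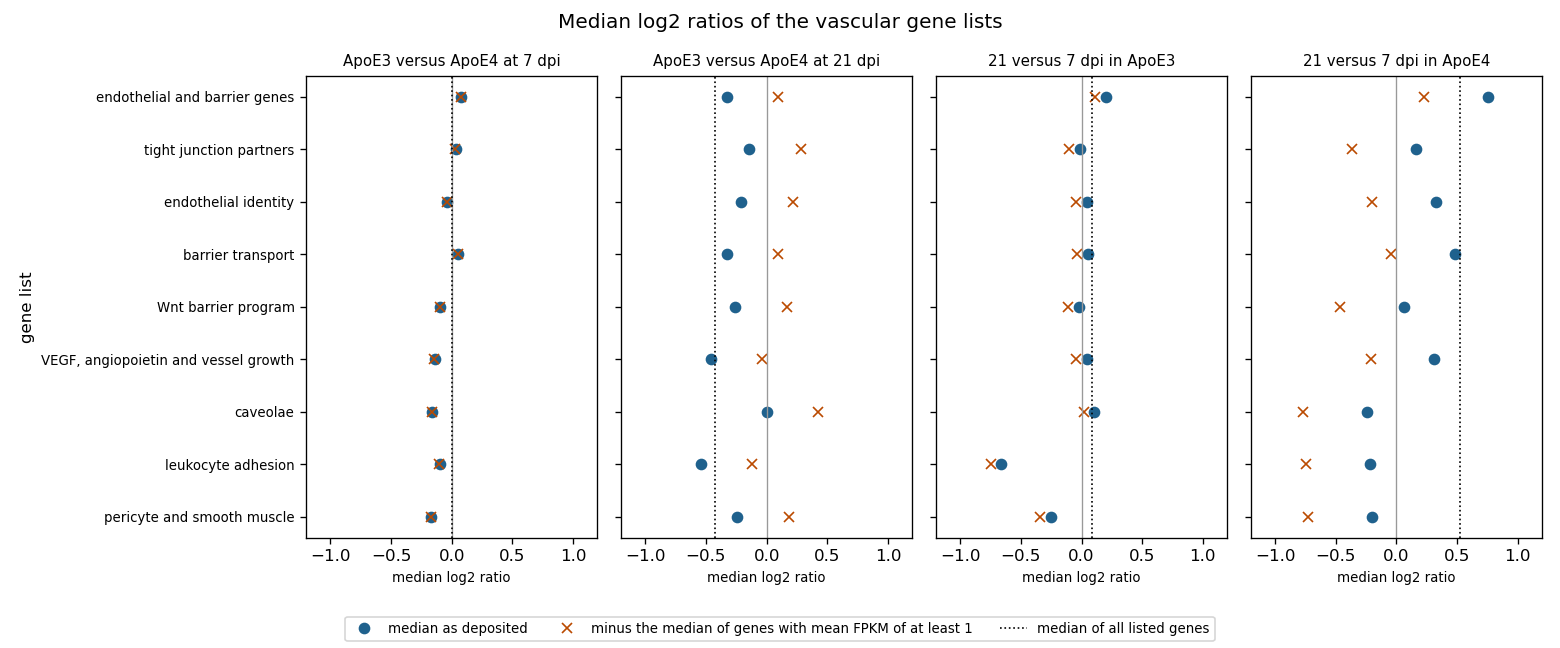
Median log2 ratio of each vascular list in the 4 comparisons, as deposited (circles) and after centring (crosses), with a dotted line at the median of all listed genes. The endothelial and barrier genes stand at 0.75 over time in ApoE4, and at 0.23 after centring.

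The segment holds other cells, and their marker lists moved between the same groups. Pericytes and smooth muscle share the vessel wall, and 13 of 14 genes were listed at 7 dpi. Of these, 3 were lower in ApoE3, beside 4.76% of all genes, with a median of -0.17. At 21 dpi 12 were listed with 4 lower, beside 58.9%, and a median of -0.24. After centring the median was 0.18, with 3 higher, beside 7.46%, and none lower, beside 8.06%. Of the 11 listed at both, 4 rose and 4 fell over time in ApoE3, beside 31.3% and 23.6%, with a median of -0.25. In ApoE4 3 rose and 3 fell, beside 59.0% and 10.9%, with a median of -0.20. After centring, 3 were higher and 5 lower in ApoE3, beside 26.6% and 27.7%, with a median of -0.34. In ApoE4 1 was then higher and 8 lower, beside 26.1% and 28.6%, with a median of -0.73. Cdh5 was lower over time in both genotypes too, and the part of the vessel wall cells in that was not tested. These 11 genes summed to 383 FPKM in ApoE3 against 415 in ApoE4 at 7 dpi and 331 and 393 at 21 dpi, with Rgs5 the most abundant. The 6 members listed at both summed to 390.5 and 359 at 7 dpi and 475 and 604 at 21 dpi.

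Macrophage and microglia genes mark cells that can also express Flt1 and Pecam1. They summed to 6138 FPKM in ApoE3 against 7925 in ApoE4 at 7 dpi and 580 and 1072 at 21 dpi over 8 of 12 genes, with Lyz2 the most abundant. Fibroblast genes summed to 664 and 851 at 7 dpi and 119 and 79.1 at 21 dpi over 6 of 8 genes, with Col1a1 leading at 7 dpi and, at 21 dpi, Dcn in ApoE3 and Pdgfra in ApoE4. Dcn, at 61.9 and 9.37 FPKM at 21 dpi, accounts for the higher sum in ApoE3. Of the 7 fibroblast genes listed at 21 dpi, 3 were higher in ApoE3 past the fold, beside 2.01% of all genes. Lower was 1, beside 58.9%, and the median log2 ratio was 0.25. After centring, 5 were higher, beside 7.46%, and none lower, beside 8.06%, with a median of 0.67. With Fn1, which was listed at 21 dpi only, the sum there was 573 in ApoE3 against 590.4 in ApoE4, the other direction as deposited. The log2 ratio of Fn1 was -0.17, and 0.25 after centring. The macrophage and fibroblast sums over genes listed at both time points were lower at 21 dpi in both genotypes, as was Cdh5. Flt1 was higher there. Erythrocyte genes, a sign of blood in the segment, summed to 346 and 347 at 7 dpi and 1063 and 1335 at 21 dpi over 4 of 5 genes, with Hba-a1 leading. Their median log2 ratio between genotypes at 21 dpi was -0.29, and changed sign to 0.14 after centring. The erythrocyte sums were higher at 21 dpi in both genotypes, as were all 5 members other than Cdh5 that were listed at both time points. The part of these cells in the result was not tested.

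Neuron genes summed to 5031 and 3911 FPKM at 7 dpi and 8199 and 12064 at 21 dpi over 8 of 10 genes, with Snap25 leading, and astrocyte genes to 17341 and 16837 and then 10564 and 19363 over 7 of 8, with Gfap leading. Oligodendrocyte genes summed to 126991 and 134133 at 7 dpi and 210029 and 291373 at 21 dpi over 5 of 8, with Mbp leading. At 21 dpi the median log2 ratio between genotypes was -0.50 for neuron, -0.72 for astrocyte and -0.54 for oligodendrocyte genes. After centring these medians were -0.080, -0.29 and -0.12. Skeletal muscle genes summed to 65.6 and 42.7 at 7 dpi and 34.6 and 695 at 21 dpi over 6 of 10, with Tnnt3 leading. Schwann cell genes summed to 823 and 817 at 7 dpi and 3320 and 1185 at 21 dpi over 5 of 8, with Pmp22 leading. Genes of muscle and of Schwann cells thus differed between genotypes at 21 dpi, in opposite directions, and muscle and nerve also hold vessels. Of the sensory ganglion list 6 of 7 were listed at 21 dpi and summed to 769 and 831 FPKM, with Calca leading and Mrgprd and Trpv1 listed at 0 in ApoE4. Calca made up most of that sum. The other 5 were higher in ApoE3 past the fold, beside 2.01% of all genes as deposited and 7.46% after centring. The median log2 ratio over the 6 was 1.90 as deposited. Of the liver list 6 of 7 were listed at 21 dpi and none at 7 dpi, and they summed to 10.5 and 114, with Apoa2 leading. The part of these tissues in the vascular values was not tested.

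Of the 5 epithelium genes, whose junctions also hold Ocln and Tjp1, Cdh1 was listed at 21 dpi, with 2.44 FPKM in ApoE3 against 0.162 in ApoE4, and none was listed at 7 dpi. Of the 5 lymphatic genes 3 were listed at each time point, with medians of 0.028 at 7 dpi and -0.39 at 21 dpi, the latter 0.034 after centring, and Lyve1 was not listed. Prox1 had 32.8 and 30.5 FPKM at 7 dpi and 27.2 and 41.4 at 21 dpi. Choroid plexus genes were listed for 2 of 5 at 7 dpi and 3 of 5 at 21 dpi, with medians of 0.11 and -0.57, the latter -0.15 after centring.

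**Figure D5:**
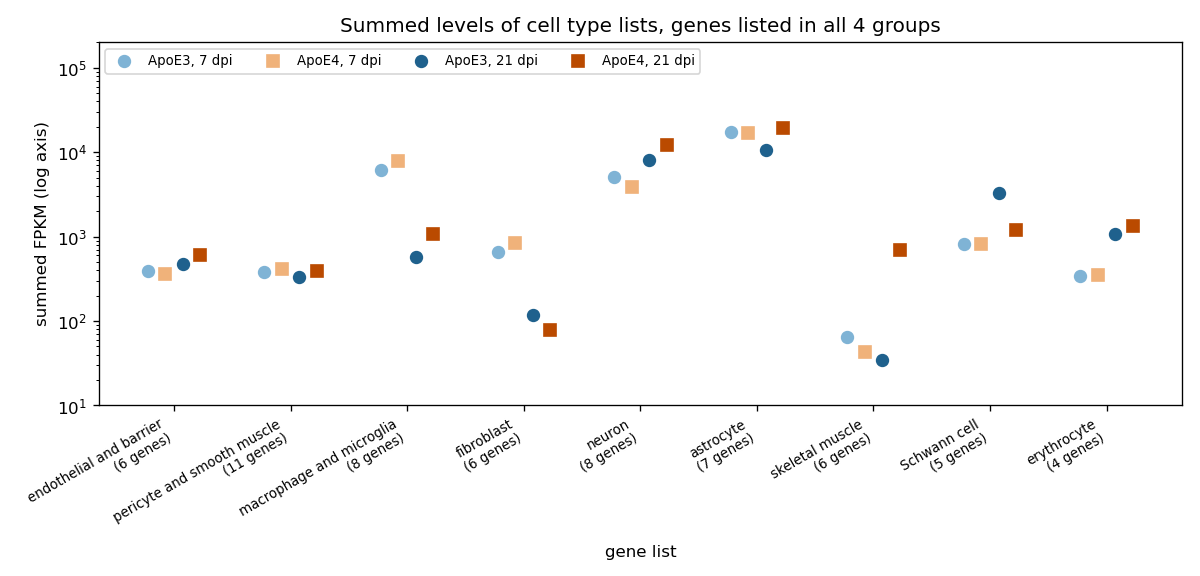
Summed FPKM of the endothelial and barrier genes and of 8 cell type lists, over the genes of each that were listed in all 4 groups, on a log axis with symbols by group. Macrophage and fibroblast sums were lower at 21 dpi, and skeletal muscle stood at 695 FPKM in ApoE4 against 34.6 in ApoE3.

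The genes whose profile over the 4 groups was nearest to the members' median profile were Gpd1, Zfp827, Polg2, Tox and Il15ra. The measure was the Euclidean distance between log2(FPKM + 1) values after each gene's own mean was subtracted, over 10641 non-members with at least 1 FPKM in all 4 groups. Gpd1 was at a distance of 0.018, with 47.3 FPKM in ApoE3 against 43.5 in ApoE4 at 7 dpi and 54.7 and 71.5 at 21 dpi. The profile is a common one, since 221 of these genes lay within 0.1. Flt1 was the member nearest to it, with 11 other genes nearer, and Cdh5 the farthest, with 9653 nearer.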

How the data were processed

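RNA-seq of lesion segments was deposited as 1 table. The authors deposited FPKM plus 1 per gene and group, and 1 was subtracted here. The submitters' processing notes name STAR 2.5.4b, SAMtools 0.1.7 and Cuffdiff 1.3.0. The study's methods say that libraries were reduced to the size of the smallest, and that a smaller share of reads aligned in a single replicate, whose group they do not name. The genome build is not given in the sources used here. The table also holds the authors' own p-value, q-value, fold change and log2 fold change for each gene, and their values were not used. Value columns were assigned to genotypes by the named comparison, ApoE3 versus ApoE4, and the order in which the fold change divides them, and not by column number.

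Symbols on 2 rows, 2 at each time point, were left out. Ratios were log2 of (FPKM + 1), and centred ratios had the median ratio of expressed genes (mean FPKM of at least 1) subtracted. With 1 value per group no test was made. Alternatives were pseudocounts of 0.1 and 0.01, a minimum mean FPKM of 1, centring and folds of 1.5 and 2, and the sum of Abcb1a and Abcb1b was added after the values were seen. The members and lists were chosen with earlier results of these data known.

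Genes named were all members, and from each list the 2 with the highest mean FPKM and up to 3 with the largest ratio between genotypes among those with a mean FPKM of at least 1, near-identical relatives of members, and the 5 genes nearest to the members' median profile. The examples printed from these, and a few genes outside the rule, were picked with their values known. Shared windows were counted in GENCODE vM21 transcripts of GRCm38. Computations used Python 3.11.15, numpy 2.4.6, pandas 2.3.3 and matplotlib 3.10.9, and were tested on simulated data.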

Additional observations from a re-analysis of the deposited data

Results flagged for a closer look

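The ratio between genotypes had opposite signs at 7 and 21 dpi for 5 of the 6 genes listed at both, and the difference between time points was not tested. Of all listed genes, 49.5% had ratios below 0 at 7 dpi and 93.8% at 21 dpi, so a change of sign was not particular to these genes. The log2 ratio of ApoE3 to ApoE4 at 7 dpi minus that at 21 dpi was 0.57 for Mfsd2a, 0.53 for Slco1a4, 0.67 for Abcb1a, 0.55 for Flt1 and -0.13 for Cdh5. With the median of expressed genes subtracted at each time point, these differences were 0.15, 0.11, 0.25, 0.13 and -0.56. On that scale Slco1a4, Abcb1a and Flt1 had ratios above 0 at both time points, Mfsd2a stood at 0.078 and -0.072, and Cdh5 at -0.069 and 0.49. Subtraction thus removed most of the difference for Mfsd2a, Slco1a4, Abcb1a and Flt1, while that of Cdh5 was larger after it. Cldn5 had ratios below 0 at both time points before subtraction, and after it stood at -0.18 at 7 dpi and 0.085 at 21 dpi. Part of the Abcb1a sequence also occurs in Abcb1b or Abcb4, and whether reads were shared was not tested.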

How the results depend on the processing

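Counts of members past the fold and medians kept their values, within 1.5 times for counts and 0.1 for medians, with pseudocounts of 0.1 and 0.01 and with genes of mean FPKM of at least 1. With no values per mouse, the limit of 0.1 was set by hand.

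Centring moved 6 of 12 such results. For ApoE3 versus ApoE4 at 21 dpi it gave 1 member higher in place of 0, 0 lower in place of 2, and a median log2 ratio of 0.094 in place of -0.33. For 21 versus 7 dpi it gave 0 higher in place of 1 in ApoE3, and 1 higher in place of 5 and a median of 0.23 in place of 0.75 in ApoE4. Between genotypes at 21 dpi Flt1 changed sign to 0.042, as did Cldn5 to 0.085, Slco1a4 to 0.10 and Abcb1a to 0.19, and Cldn5 changed sign to -0.035 over time in ApoE4.

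A minimum fold of 1.5 left 0 members higher and 0 lower between genotypes at 7 dpi, beside 1.22% and 1.51% of all genes. It left 0 lower at 21 dpi, beside 23.0%. Over time in ApoE3 it left 0 higher, beside 20.4%, and 1 lower, beside 16.0%. In ApoE4 it left 4 higher, beside 46.2%, and 1 lower, beside 7.49%. A minimum fold of 2 left 0 members in every comparison and direction. With Abcb1a and Abcb1b summed, 0 members were higher at 7 dpi in place of 1, beside 3.77% of all genes. The median over time in ApoE4 was then 0.62. The table holds no read numbers, so low values such as those of Plvap have no stated precision.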
